A study of Rattus norvegicus with 6 samples.

Results

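The kidney mRNA levels of translation initiation and elongation factors were compared between 2 rat strains. The genes were those whose platform symbol starts with Eif, Eef1 or Eef2, leaving out Eif2s3y, together with Pdcd4. This gave 60 genes with 97 probe sets, of 14217 named genes and 31042 probe sets on the array. Each gene was represented by its probe set of highest mean signal over the 6 arrays. The rule itself uses names and mean signal, and it was set with earlier results of these data known. Probe sets that the annotation assigns to several genes were not used, so Eif5 and Eif3e have no value here. S rats are inbred Dahl salt-sensitive animals of the SS/Jr line, which develop high blood pressure on a high-salt diet. The congenic rats, S.LEW(D1MCO4x1x3Bx1), carry a segment of chromosome 1 from the Lewis rat on the S background. All rats were adult males, with 3 rats of each strain and 1 array per rat of total RNA from kidney. The series title ties the strains to a search for hypertension variants in Adamts16, which encodes a secreted metalloprotease.

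Translation of an mRNA starts when initiation factors bring the small ribosomal subunit with the initiator tRNA to the capped end of the message. eIF2 carries the initiator tRNA as a complex with GTP, eIF2B reloads eIF2 with GTP, and stress kinases stop that reloading by phosphorylating eIF2. eIF3 is a large scaffold on the small subunit, the eIF4 factors bind the cap and unwind the leader, and eEF1 and eEF2 then deliver aminoacyl-tRNA and move the ribosome along. In the kidney, tubule cells depend on this machinery for a continuous supply of transporters and enzymes, and its activity is set largely by phosphorylation, which an mRNA array does not measure.

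The start sites of several of these genes are shown because messages of the translation machinery often begin with a run of pyrimidines, through which mTORC1 signalling controls how well they are translated. Of the 60 genes, 52 had 1 start in the RefSeq promoter table of assembly GRCr8, 3 had 2 starts and 5 had no entry. Each window below runs 5′ to 3′ and holds 10 bases before the annotated start and 20 bases from it. Capitals mark the longest run of C and T within the window. The first and the third belong to the members with the smallest p-values in either direction, and the others have the 3 longest runs of the 52.
Eef1a1, chr8:88225050-88225079, minus strand: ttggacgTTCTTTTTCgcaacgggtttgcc
Eef1b2, chr9:72074081-72074110, plus strand: ggccggtcccggCCCTTTTTCTCCCTCagc
Eif2a, chr2:144911350-144911379, plus strand: gcatgggTTTCTCTTTCCgggacaagatgg
Eif2s3, chrX:62933680-62933709, minus strand: cagccgagcaTTTTCCTTTTCTCTCTgagc
Eif3f, chr1:172369052-172369081, plus strand: cccttccgttctagCCTCTCTCTTTCTCgg
The runs in these windows were 9, 15, 11, 16 and 14 bases long in that order. A run of at least 8 was found in 9 of the 52 windows (17.3%), against 9.32% of 7360 windows of named genes tested on the array. In the Eef group it was found in 4 of 10, namely the elongation factors Eef1a1 and Eef1b2 and the methyltransferases Eef1akmt1 and Eef1akmt2.

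The promoters, taken as 300 bases of which 250 lie before the start, were also searched on both strands for CTTCCGG, the core recognised by ETS-family factors. It was present in 17 of 52 (32.7%), against 19.3% of the promoters of named genes tested. It was found in 3 of 3 Eif1, 6 of 14 Eif2, 4 of 10 Eif3 and 1 of 11 Eif4 promoters, and in 1 of 10 promoters of the Eef group, that of the methyltransferase Eef1akmt1. The 3 windows below, with the motif in capitals, belong to members of the Eif2 group with p below 0.05 and show it on either strand.
Eif2a, chr2:144911225-144911254, plus strand: gcactcggaaaCCGGAAGtgaattggcccc
Eif2ak1, chr12:15858216-15858245, minus strand: ctcttggggtaCTTCCGGctcaggggagga
Eif2b2, chr6:110597951-110597980, plus strand: cctctctcgccCCGGAAGtgaaactggtct
A match is a description of the letters and not a binding site, and 1 of the 9 pyrimidine runs overlapped the motif.

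Of the 60 genes, 57 passed the filter on low signals. Eef1a2, Eef1akmt2 and Eef1akmt4 did not and were not tested. Values are scaled signals on a linear scale with the SD over 3 rats, and differences are log2 values, congenic minus S, with the limma standard error (SE). Median signals lay between 170 and 178 on the S arrays and between 162 and 174 on the congenic arrays. The ratio of 3′ to 5′ signal of the GAPDH control, a sign of RNA integrity, was 1.11 to 1.18 on S arrays and 1.12 to 1.20 on congenic arrays, so the ranges overlapped. Of 7 markers of the proximal tubule, the main cell type of kidney cortex, 7 were above the filter on these arrays. Their summed signal was 76722 to 84473 on S arrays and 85508 to 93659 on congenic arrays, without overlap, and 6 of the 7 had positive differences. The part that this marker difference has in the values below was not tested. Of the markers of adrenal gland, Cyp11b1, Star and Cyp21a1 were under the filter and Mrap was above it (363 in S and 374 in congenic kidneys). Of those of fat cells, Adipoq, Plin1 and Lep were under the filter, and Cidec (1008 and 869) and Fabp4 (776 and 759) were above it. In whole kidney, fewer cells of a type and less RNA per cell cannot be told apart. Nothing in the labels groups the rats by litter or day. The p-values rest on the spread among these 6 rats, which limma draws towards that of other probe sets of similar signal.

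No translation factor passed an adjusted p of 0.05, as was the case for all 15521 probe sets tested (0 called, 0.0%). The smallest adjusted p among the members was 0.229, for Eif2a. At an unadjusted p below 0.05, 11 of 57 members (19.3%) differed, against 10.3% of all probe sets tested and 10.4% of named genes taken at 1 probe set each. Of these, 8 members (14.0%) were higher in the congenic kidneys, against 4.72% of probe sets and 5.55% of named genes, and 3 (5.26%) were lower, against 5.61% and 4.84%. Among the lower, Eef2k passed the filter on low signals through its S signals. The strains did not overlap in 14 members (24.6%), with the congenic rats above the S rats in 9 and below them in 5, against 17.0% of named genes. By direction, those above were 15.8% of members, beside 7.98% of probe sets and 9.59% of named genes, and those below were 8.77%, beside 7.99% and 7.45%. The smallest 2-sided exact permutation p that 3 against 3 rats can give is 0.1, and each of those 14 members had it. Differences were small: the members' median was 0.02, beside -0.01 over all probe sets tested and 0.01 over named genes, and 37 of 57 (64.9%) were above 0, beside 48.2% and 52.4%.

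Without the intensity trend in the variance, 10.5% of members had p below 0.05 beside 9.23% of all probe sets tested, and without S replicate 3 the shares were 10.5% and 7.37%. The balance between higher and lower members depended on the scaling. The 8 to 3 split was 6 to 4 after quantile normalisation and 6 to 4 after cyclic loess. It was 12 to 2 with arrays centred on their medians and 5 to 4 with a block for the leading number of array titles. In either direction and in that order, 17.5%, 17.5%, 24.6% and 15.8% of members had p below 0.05. The matching shares of all probe sets tested were 9.72%, 9.7%, 12% and 9.36%. Centring moved the median of all probe sets tested from -0.01 to 0.06 and their share above 0 from 48.2% to 62.6%. Eef1a1, Eif2a, Eif2b2 and Eif4e2 had p below 0.05 in all 15 refits with another scaling, filter or variance model or without 1 array, while the other 7 members missed it in at least 1 of them.

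**Figure D1:**
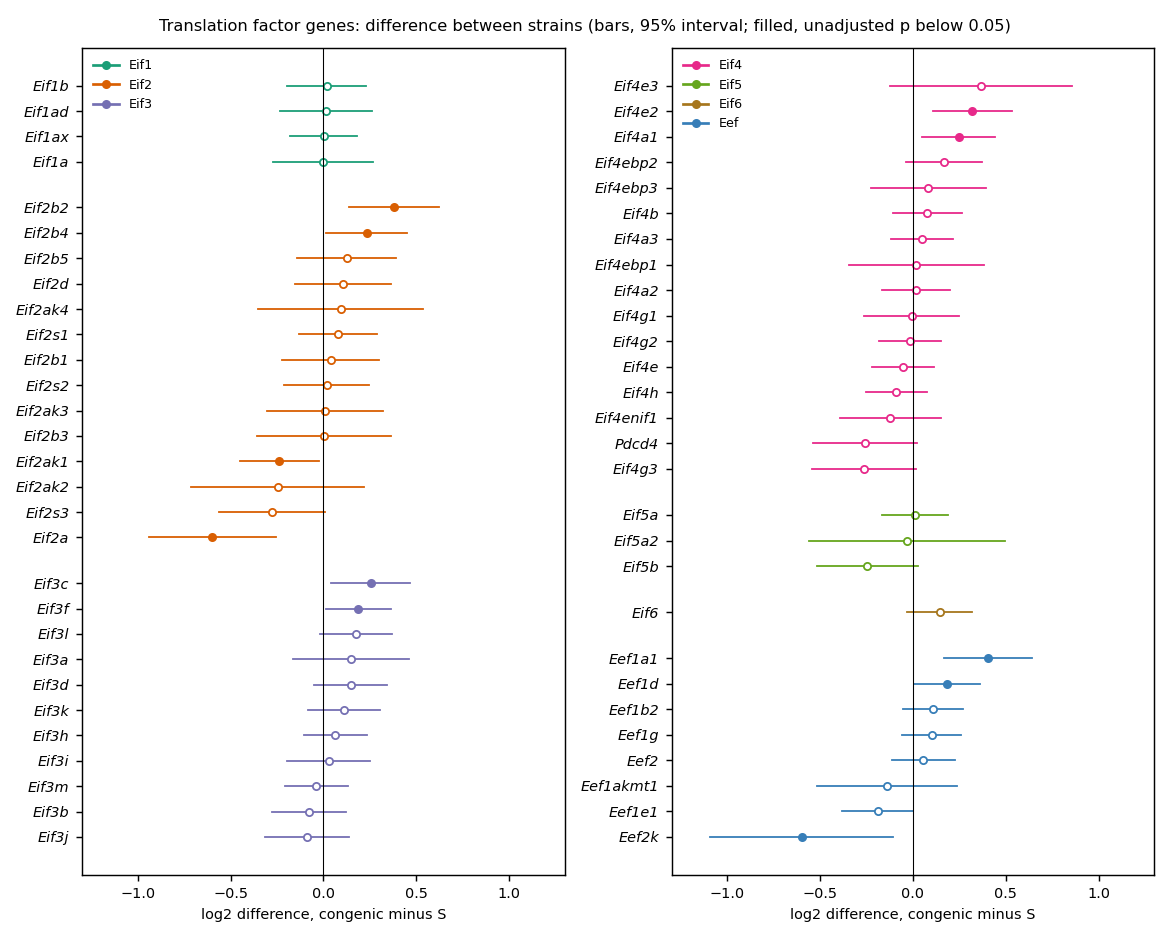
Log2 difference, congenic minus S, on the horizontal axis for each of the 57 tested members by factor group, as points with 95% confidence intervals from limma, filled where p is below 0.05. Most points lie within 0.3 of 0. Intervals of filled points do not include 0, among them Eef1a1, Eif2b2 and Eif4e2 on the right and Eif2a and Eef2k on the left.

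The Eif2 group, formed by gene symbol, held both the member with the smallest p and members of either direction. Among its 14 genes, 10 differences were positive and 4 negative, with 2 members higher and 2 lower at p below 0.05. The median was 0.03 and the mean was -0.02, so they differ in sign. The 3 subunits of eIF2 itself did not pass p below 0.05: Eif2s1, the subunit that the stress kinases phosphorylate, had a difference of 0.08, Eif2s2 of 0.02, which turned negative after quantile normalisation, and Eif2s3, the GTP-binding subunit, of -0.28 (SE 0.133). Signals of Eif2s3 were 997, 967 and 844 in S rats and 732, 931 and 671 in congenic rats, and 1 congenic rat lay within the S range.

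Eif2a encodes eIF2A, a single-chain protein that can deliver initiator tRNA independently of eIF2 and is no subunit of it. Its signals were 617, 964 and 853 in S rats and 553, 567 and 465 in congenic rats. All congenic rats were below all S rats, and the S rats were the more scattered. The means were 811 ± 178 and 528 ± 55.5, a difference of -0.60 (SE 0.160, 95% interval -0.94 to -0.26) or a 1.52-fold lower mean level on the log2 scale in the congenic kidneys. The unadjusted p was 0.00201 and the limma adjusted p 0.229. Without S replicate 1, its lowest S rat, the difference was -0.79 and the limma adjusted p 0.0420, and over all alternatives the adjusted p ran from 0.0420 to 0.582.

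The chosen probe sets of all 5 subunits of eIF2B, the exchange factor that reloads eIF2 with GTP, had positive differences. Those of Eif2b1 and Eif2b3 turned negative with the block for title numbers, without S replicate 2 and without congenic replicate 1, and that of Eif2b3 also without congenic replicate 2. Their median was 0.12, and 2 of them had p below 0.05. For Eif2b2 the S rats had signals of 802, 738 and 920 and the congenic rats of 1034, 1031 and 1123. The strains did not overlap, with means of 820 ± 92.2 and 1063 ± 52.1 and a difference of 0.38 (SE 0.114; unadjusted p 0.00464, limma adjusted p 0.277). Eif2b4 read 908, 1019 and 1011 in S rats against 1165, 1180 and 1102 in congenic rats, again without overlap, with a difference of 0.23 (SE 0.102; unadjusted p 0.0377, limma adjusted p 0.457). The catalytic subunit Eif2b5 had a difference of 0.12, with -0.18 from a further probe set, Eif2b1 of 0.04 and Eif2b3 of 0.00, each with overlapping strains.

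Of the 4 kinases that phosphorylate eIF2, Eif2ak1, the haem-regulated kinase, had lower values in congenic kidneys. S rats had 1516, 1426 and 1650 and congenic rats 1259, 1227 and 1411, which left a narrow gap between the lowest S and the highest congenic rat. The difference was -0.24 (SE 0.0998; unadjusted p 0.0315, limma adjusted p 0.437). A further probe set of Eif2ak1 gave 0.01, so the 2 probe sets disagreed. The 3 erythrocyte markers tested were also lower in congenic kidneys, with Hbb at -0.42, Alas2 at -0.55 and Slc4a1 at -0.08, with summed signals of 17153 to 23735 in S kidneys and of 12036 to 18427 in congenic kidneys, which overlapped. Their part in the Eif2ak1 value was not tested. Eif2ak2, which senses double-stranded RNA, had a difference of -0.25, Eif2ak3, the kinase of the endoplasmic reticulum, of 0.01 and Eif2ak4, the amino acid sensor, of 0.09, all with overlapping strains.

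Among the 11 eIF3 subunits measured, 8 differences were positive and 3 negative, and the median was 0.11 beside 0.01 over named genes. Eif3c and Eif3f, both core subunits, had p below 0.05 in the higher direction and none had it in the lower. Eif3f read 3820, 3675 and 3408 in S rats and 4364, 4121 and 3932 in congenic rats, so that every congenic rat lay above every S rat. Its means were 3634 ± 209 and 4139 ± 216, with a difference of 0.19 (SE 0.0815; unadjusted p 0.0361, limma adjusted p 0.453). For Eif3c the S signals of 4666, 3896 and 3812 and the congenic signals of 4310, 5251 and 5191 overlapped through 1 rat of each strain. Its difference was 0.25 (SE 0.0999; unadjusted p 0.0229, limma adjusted p 0.404), and a further probe set gave 0.19.

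The remaining eIF3 subunits did not reach p below 0.05. Eif3k had congenic signals of 2053, 2003 and 2062 that lay just above the S signals of 1998, 1961 and 1716. Its difference was 0.11, and a further, dimmer probe set gave -0.45 with overlapping strains. The congenic signals of that dimmer probe set (158 ± 61.1) lay at the level of probe sets under the filter. Eif3l had a difference of 0.17, Eif3d, which can bind the cap itself, of 0.15, Eif3a, the largest scaffold subunit, of 0.15, Eif3h of 0.06 and Eif3i of 0.03. Differences were negative for Eif3b (-0.08), the loosely attached Eif3j (-0.09) and Eif3m (-0.04), the last of which turned positive when arrays were centred on their medians. The summary over the 11 subunits, each centred on its own mean over the 6 rats, overlapped between strains: S rats lay between -0.10 and 0.02 and congenic rats between -0.03 and 0.13.

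The eIF4 group of 16 genes, which here includes Pdcd4, was near balance, with 9 positive and 7 negative differences and a median of 0.02. Eif4a1 and Eif4e2 had p below 0.05, both higher in congenic kidneys. Eif4e2 encodes a cap-binding protein that does not bind the eIF4G scaffold in the usual way and is mostly known for repressing translation. Its signals were 1016, 1058 and 1098 in S rats and 1280, 1426 and 1258 in congenic rats. The strains were well apart, with means of 1057 ± 40.9 and 1321 ± 91.3 and a difference of 0.32 (SE 0.0994), a 1.25-fold higher level. The unadjusted p was 0.00588 and the limma adjusted p 0.289. The cap-binding protein Eif4e itself had a difference of -0.05, which turned positive on centring, with 3616, 3609 and 3673 in S rats and 3402, 3709 and 3398 in congenic rats. Eif4e3, another family member, had 0.37 with a large SE of 0.229 and overlapping strains. Its S signals of 159, 145 and 184 lay at the level of probe sets under the filter, such as Adipoq (160 in S kidneys). The congenic signals of Eif4e3 were 210, 174 and 249. A further probe set of Eif4e3 was under the filter and gave -0.20.

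Eif4a1 encodes the RNA helicase that unwinds leaders. Its S signals were 5064, 5349 and 4679 and its congenic signals 5506, 5625 and 6816, with congenic replicate 3 far above the rest. The difference was 0.25 (SE 0.0930; unadjusted p 0.0188, limma adjusted p 0.387), and it was 0.15 without congenic replicate 3. Its relatives Eif4a2 and Eif4a3, the latter a part of the exon junction complex, had 0.01 and 0.05, and the sign of Eif4a2 turned after quantile normalisation and cyclic loess. The helicase partners Eif4b and Eif4h had 0.08 and -0.09.

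The chosen probe sets of the scaffolds that join cap and ribosome did not pass p below 0.05. Eif4g1 had a difference of -0.01 and Eif4g2, which lacks the eIF4E-binding part, of -0.02, both of which turned positive with arrays centred on their medians. A further probe set of each had p below 0.05, with -0.34 for Eif4g1 (unadjusted p 0.0372) and -0.21 for Eif4g2 (unadjusted p 0.00995). The third tested probe set of each was positive, with 0.06 for Eif4g1 and 0.08 for Eif4g2 and overlapping strains, so the probe sets disagreed in sign. Eif4g3 had -0.26, with S signals of 710, 643 and 794 all above congenic signals of 636, 620 and 532. The 3 genes for eIF4E-binding proteins, which sequester eIF4E until mTORC1 phosphorylates them, had 0.02 (Eif4ebp1), 0.17 (Eif4ebp2) and 0.08 (Eif4ebp3), and the eIF4E transporter Eif4enif1 had -0.12.

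Pdcd4, an inhibitor of the eIF4A helicase, depended on the probe set. The probe set of highest signal read 952, 1060 and 1337 in S rats and 1039, 864 and 882 in congenic rats, with a difference of -0.26 (SE 0.131, limma adjusted p 0.515). Another read 988, 1374 and 1242 in S rats and 879, 768 and 544 in congenic rats, without overlap, a difference of -0.73 with an unadjusted p of 4.94e-04 and a limma adjusted p of 0.170. The 2 other tested probe sets of Pdcd4 gave -0.04 and -0.05. The probe set at -0.73 was singled out after its values were seen.

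In the Eif1 group, Eif1 itself had no value here. The chosen probe sets of its 4 genes, Eif1a, Eif1ad, Eif1ax and Eif1b, lay between -0.00 and 0.02, and the smallest limma adjusted p among them was 0.966. Their sign depended on the scaling, with Eif1a turning to 0.01 and Eif1ax to -0.02 after quantile normalisation. The 3 further tested probe sets of Eif1a gave -0.22, without overlap of the strains, -0.35 and -0.63, none with p below 0.05. The probe set at -0.63 passed the filter through its S signals of 178, 227 and 269. Its congenic signals of 232, 154 and 82.7 had a mean of 156, at the level of probe sets under the filter. In the Eif5 group, Eif5a, the hypusinated factor that relieves stalled ribosomes, had 0.01, its relative Eif5a2 had -0.03, both turning sign after quantile normalisation, and Eif5b, the GTPase that joins the subunits, had -0.25 with overlapping strains. The 2 further tested probe sets of Eif5b had the opposite sign, with 0.10 and 0.48, also with overlapping strains. Eif6, which keeps the large subunit from joining early, read 3015, 3097 and 2836 in S rats and 3503, 3224 and 3164 in congenic rats. Those values did not overlap, and the difference was 0.14 (limma adjusted p 0.566).

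**Figure D2:**
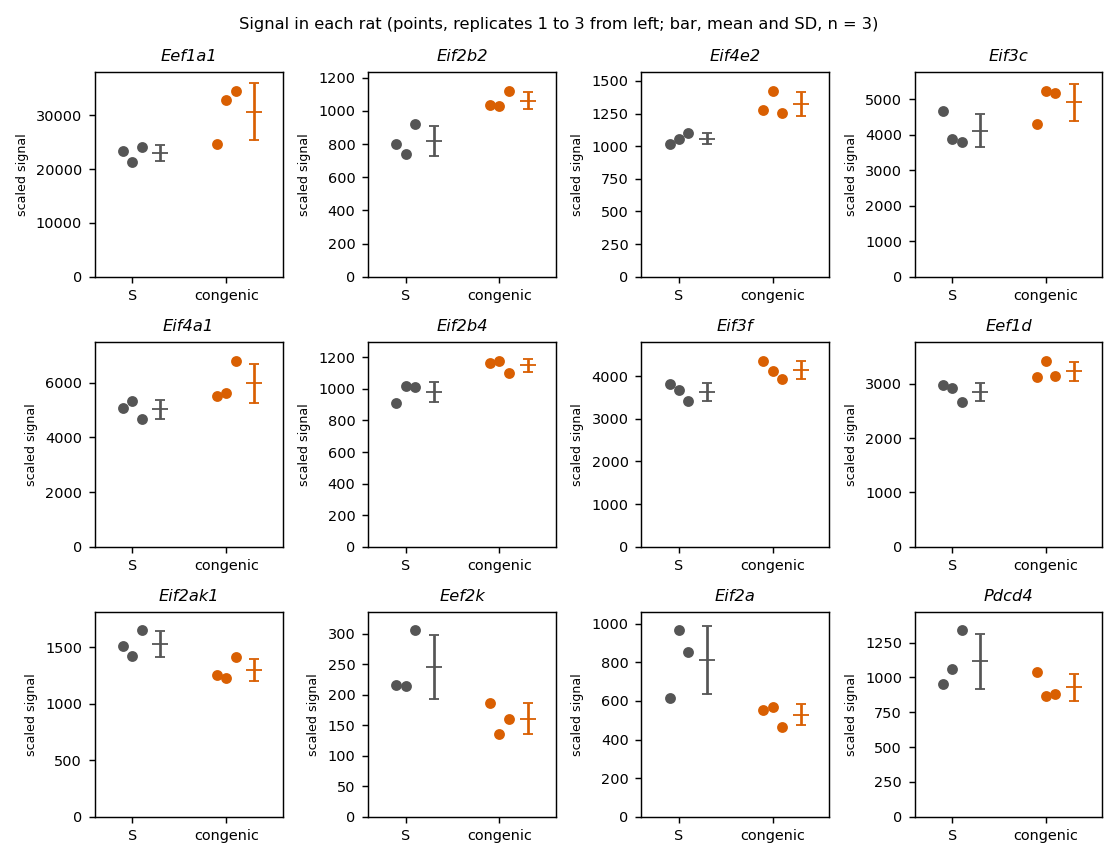
Scaled signal (vertical axis, linear from 0) in each S and congenic rat for the 11 members with p below 0.05 and Pdcd4, with the mean and SD of 3 rats beside the points. Eif2a, Eif2b2 and Eif4e2 show a gap between the strains, whereas the Eif3c points of the strains overlap.

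Among the elongation factors 8 of 11 genes were tested, with 5 positive and 3 negative differences, a median of 0.08 and a mean of -0.01, which differ in sign. Eef1a1, which carries aminoacyl-tRNA to the ribosome, had the smallest p of those higher in congenic kidneys. It read 23368, 21375 and 24135 in S rats and 24598, 32790 and 34557 in congenic rats. All congenic rats were above all S rats, but congenic replicate 1 only just, and the other 2 were far above. The means were 22960 ± 1424 and 30648 ± 5314, with a difference of 0.40 (SE 0.111, 95% interval 0.17 to 0.64), or 1.32-fold. The unadjusted p was 0.00255 and the limma adjusted p 0.249. Without congenic replicate 1 the difference was 0.55 and the limma adjusted p 0.0376, and over the alternatives that kept this probe set the adjusted p ran from 0.0376 to 0.614. The further probe set of Eef1a1 read 23571, 22086 and 24754 in S rats and 22427, 23826 and 23974 in congenic rats. It had a difference of -0.00 and a limma adjusted p of 0.993, so the difference was seen with 1 of 2 probe sets.

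The genes of the eEF1B complex, which reloads eEF1A with GTP, had differences of 0.11 (Eef1b2), 0.18 (Eef1d) and 0.10 (Eef1g). A further, dimmer probe set of Eef1g gave -0.22 with overlapping strains. Eef1d read 2969, 2912 and 2661 in S rats and 3121, 3425 and 3138 in congenic rats, without overlap and with an SE of 0.0836 (unadjusted p 0.0469, limma adjusted p 0.476). Eef1e1, a scaffold of the multi-tRNA-synthetase complex, had 1511 ± 39.1 in S and 1325 ± 20.7 in congenic kidneys, without overlap and with a difference of -0.19 (unadjusted p 0.0521). The translocase Eef2 itself had a difference of 0.05, whose sign turned to -0.01 after cyclic loess.

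Eef2k, the calcium-dependent kinase that switches eEF2 off, had lower values in congenic kidneys. Its S signals were 216, 215 and 306 and its congenic signals 186, 136 and 161. The strains did not overlap, with means of 245 ± 52.3 and 161 ± 25.4 and a difference of -0.60 (SE 0.231; unadjusted p 0.0205, limma adjusted p 0.393). Its congenic signals lay at the level of probe sets under the filter, such as that of Adipoq (160 in S and 171 in congenic kidneys). Eef2k thus passed the filter through its S signals. Its 3 other probe sets were under the filter and gave 0.36, -0.04 and -0.57. The methyltransferase Eef1akmt1 had -0.14. Eef1a2, the form of eEF1A typical of muscle and nerve, was under the filter and not tested, with 39.8 ± 21.6 in S and 97.2 ± 36.1 in congenic rats.

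**Figure D3:**
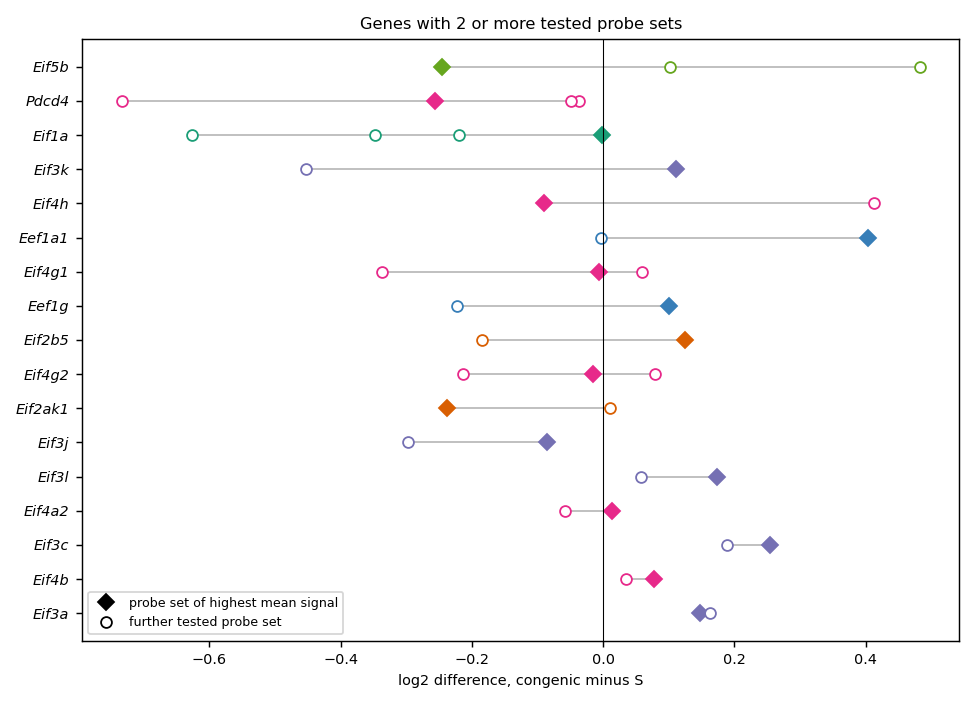
Log2 difference, congenic minus S, of every tested probe set for the 17 genes with at least 2 tested probe sets, with a diamond for the probe set of highest mean signal and circles for the others. Probe sets of Eif5b, Pdcd4 and Eif1a spread over more than 0.6, and those of Eef1a1 lie at 0.40 and near 0.

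Probe sets of the same gene often disagreed. Of 24 further tested probe sets, 13 had the sign of the chosen one. Of the same 24, 5 had p below 0.05, beside 10.3% of all probe sets tested. Of the 11 members with p below 0.05, 3 had a further tested probe set, and its sign was the same for Eif3c and the opposite for Eif2ak1 and Eef1a1, where it lay close to 0. The widest ranges were 0.73 for Eif5b, 0.70 for Pdcd4 and 0.62 for Eif1a. The lowest Eif1a value came from a probe set that passed the filter through its S signals. The further probe sets with p below 0.05 besides that of Pdcd4 were those of Eif4g1 at -0.34, Eif4g2 at -0.21, Eif4h at 0.41 and Eif3j at -0.30, whose chosen probe sets had -0.01, -0.02, -0.09 and -0.09. These were named after their values were seen. Which part of the transcript, or which copies of a gene, each probe set reads is not given in the sources used here.

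Split by role, the 46 tested factors themselves had 32 positive differences and a median of 0.04, with 8 higher (17.4%) and 1 lower (2.17%) at p below 0.05, beside 5.55% and 4.84% of named genes. The 11 tested regulators, that is the kinases, eIF4E-binding and transport proteins, methyltransferase and Pdcd4, had 5 positive and 6 negative differences and a median of -0.12, with 0 higher and 2 lower (18.2%). The lower ones were Eif2ak1 and Eef2k, and Eef2k passed the filter through its S signals. The difference between factors and regulators was not tested. Summed up per rat, the strains overlapped in every group but Eif6, which is a single gene. The Eif4 mean deviation was -0.05 to 0.01 in S rats and 0.00 to 0.03 in congenic rats, overlapping slightly. With arrays centred on their medians the Eif4 ranges were -0.06 to -0.04 and 0.01 to 0.08, without overlap. The Eif2 and Eif5 groups overlapped widely, with Eif5 at -0.09 to 0.12 in S and -0.18 to 0.04 in congenic rats, and the Eef group varied least, from -0.02 to 0.02 over the 6 rats.

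**Figure D4:**
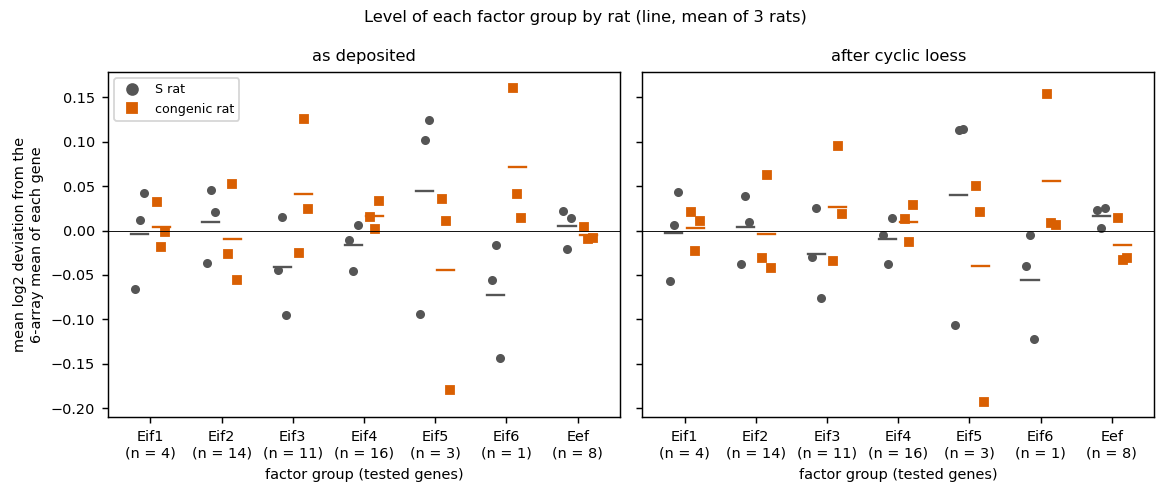
Mean log2 deviation of each factor group from the members' own means, on the vertical axis, for each of the 6 rats, as deposited on the left and after cyclic loess on the right, with lines at strain means. As deposited, the strains overlap in Eif1, Eif2, Eif3, Eif4, Eif5 and Eef, and 1 congenic rat is highest for Eif3 at 0.13.

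Differences were also set beside the start-site features. Of the members with a pyrimidine run of at least 8, 8 were tested, 3 had positive differences and the median was -0.06. Of those with shorter runs, 41 were tested, 28 were positive and the median was 0.02. With CTTCCGG, 11 of 17 tested were positive with a median of 0.019, and without it 20 of 32 were, with a median of 0.016. These are descriptions without a test.

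Other genes of translation were described from 6 lists. Of 76 genes listed, 63 were tested, and 5 (7.94%) had p below 0.05 in the limma fit, 1 higher and 4 lower, beside 10.4% of named genes, with 0 at an adjusted p of 0.05 and a median of 0.01. Of the 15 tested genes of mTORC1 signalling, 0 had p below 0.05 in the limma fit, with Mlst8 at -0.32 and Rptor at 0.28. Among 15 genes of the eIF2 phosphatases and the stress response, Ppp1cb, a phosphatase catalytic subunit, had 4267 ± 76.3 in S and 3408 ± 398 in congenic kidneys (-0.33). The transcription factor Atf5 had -0.59, with S signals of 717, 667 and 1327 and congenic signals of 649, 474 and 604. Its S replicate 3 lay far above the rest. Of 11 poly(A)-binding and message-selecting genes, Paip1 had -0.24 and Fmr1 -0.50, both below p 0.05. The strains overlapped for Fmr1, with 372, 555 and 478 in S rats and 383, 420 and 215 in congenic rats. The 8 termination and recycling genes and the 7 genes that make hypusine and diphthamide had 0 such members in the limma fit. Of 7 mitochondrial factors, Gfm1, the mitochondrial translocase, had 985 ± 91.3 in S and 1215 ± 124 in congenic kidneys (0.30).

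The strains differ by a segment of chromosome 1 that holds Adamts16, and 10 members lie on that chromosome by GRCr8 gene order. Of the 9 tested, 6 had positive and 3 negative differences, and Eef2k, Eif3c and Eif3f had p below 0.05, that is 3 of 9 (33.3%) beside 11.1% of the 1149 named genes tested on that chromosome. Eef2k among them passed the filter through its S signals. The nearest to Adamts16 was Eif3k, 203 tested genes away, followed by Eif3f at 496, and Eef2k lay 555 tested genes away. The limits of the Lewis segment were not given in the sources used here.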

How the data were processed

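Kidney RNA of 3 S and 3 congenic rats was measured on 1-colour arrays. The authors deposited 1 linear intensity per probe set, and GCOS 1.4 is the software named in the submitters' processing notes. The software settings, detection calls and annotation build were not given in the sources used here. On every array, the mean signal after trimming 2% at either end was 500.2, so no further scaling was applied.

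Of 31099 probe sets, 57 controls were left out. Signals were floored at the 10th percentile, 12.3, and converted to log2. The upper part of the table by mean log2, 15521 probe sets, was fitted with limma 3.58.1 in R 4.3.3 (lmFit, eBayes with trend, prior degrees of freedom 10.7), with Benjamini-Hochberg adjustment over all of them. The median SE of a difference was 0.145, and the number of arrays limits the precision. Exactly 1 symbol was held by 20826 probe sets, several by 436 and none by 9780. Updating through Entrez identifiers changed 0 member symbols. GRCr8 gave names, gene order and start-site sequence.

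Named were Pdcd4, members with unadjusted p below 0.05, up to 4 of smallest p per group, non-overlapping members with a fold of at least 1.3, a set list of well-known factors and up to 3 genes from each further list. Other members of a family are given beside them. The members and lists were chosen with earlier results of these data known. The fit was tested on simulated data. Alternatives covered floor and pseudocount (16), filter, scaling, variance trend, array weights, a block, the choice of probe set and each array left out. Figures used matplotlib 3.10.9.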

Additional observations from a re-analysis of the deposited data

How the results depend on the processing

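No paired analysis was possible because the labels give the strains no shared replicate numbers. Leaving out each array in turn gave 0 to 1 members at an adjusted p of 0.05 (Eef1a1 without congenic replicate 1, Eif2a without S replicate 1), 6 (without S replicate 3, 10.5% beside 7.37% of all probe sets) to 15 (without S replicate 1, 26.3% beside 12.4%) at p below 0.05, 4 to 9 higher and 2 to 6 lower, and 16 (28.1% beside 25.5%, without congenic replicate 3) to 22 (38.6% beside 30.5%, without S replicate 1) without overlap, 11 to 16 higher and 5 to 10 lower. The medians then ran from -0.0033 to 0.032 (Eif1), -0.029 to 0.096 (Eif2), 0.023 to 0.14 (Eif3), -0.0052 to 0.054 (Eif4), -0.17 to 0.048 (Eif5), 0.10 to 0.17 (Eif6), 0.047 to 0.10 (Eef) and 0.027 to 0.051 (all members). Other translation genes had 4 (without S replicate 2, beside 8.65% of all probe sets) to 7 (without S replicate 1, beside 12.4%) at p below 0.05. Their medians were 0.0044 to 0.044. Without the variance trend 6 members had p below 0.05 (10.5%, beside 9.23% of all probe sets) and 4 were higher. With the title-number block 5 were higher (15.8% of members in either direction, beside 9.36% of all probe sets). With second probe sets 5 of 50 were lower, beside 5.61% of all probe sets. Among the 46 factors alone 1 was lower (2.17%, beside 5.61% of all probe sets) and 3 were lower without overlap (beside 7.99%). Their medians were 0.10 (Eef) and 0.044 (all). Centring on array medians gave 16 higher and 3 lower without overlap (33.3% in all, beside 17.5% of all probe sets), and medians of 0.078 (Eif1), 0.099 (Eif2), 0.18 (Eif3), 0.087 (Eif4), 0.15 (Eef), 0.089 (all members) and 0.076 (other translation genes). Other translation genes at p below 0.05 numbered 8 with centring and 8 without the filter. The Eef median was 0.031 after quantile normalisation, 0.017 after loess, 0.055 without the filter, 0.055 with a 25th-percentile filter and -0.0032 as a mean over probe sets.

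Some signs turned. After quantile normalisation the values were 0.0077 for Eif1a, -0.022 for Eif1ax, -4.9e-04 for Eif1b, -0.0017 for Eif2s2, -0.064 for Eif4a2, -0.039 for Eif5a and 0.025 for Eif5a2. After cyclic loess they were -0.013 for Eef2, 0.0067 for Eif1a, -0.020 for Eif1ax, -0.014 for Eif2s2, -0.050 for Eif4a2, -0.046 for Eif5a and 0.044 for Eif5a2. With centring they were 0.069 for Eif1a, 0.017 for Eif4e, 0.064 for Eif4g1, 0.055 for Eif4g2 and 0.040 for Eif5a2. With the block they were 0.039 for Eif1a, -0.016 for Eif1ad and -0.027 for Eif5a, and with array weights -9.8e-04 for Eif1ax and 0.0023 for Eif4g1. Leaving out 1 array gave -0.12 to 0.063 for Eif1a, -0.024 to 0.051 for Eif1ad, -0.030 to 0.037 for Eif1ax, -0.033 to 0.095 for Eif1b, -0.084 to 0.12 for Eif2ak3, -0.091 to 0.15 for Eif2s2, -0.028 to 0.29 for Eif3a, -0.030 to 0.094 for Eif4a2, -0.078 to 0.16 for Eif4ebp1, -0.16 to 0.073 for Eif4g1, -0.066 to 0.040 for Eif4g2, -0.048 to 0.050 for Eif5a, -0.17 to 0.13 for Eif5a2, 0.31 to 0.55 for Eef1a1 and -0.79 to -0.46 for Eif2a. The cause of these changes was not tested. Without detection calls, background was not set apart from signal for dim probe sets.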
